A study of Mus musculus with 12 samples.

Results

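The oxidative phosphorylation subunit genes are the nuclear genes for the proteins of the respiratory chain and of ATP synthase. They were chosen by symbol alone, as every symbol of the deposited table of values that begins with Nduf, a letter a, b, c, s or v and a digit, with Uqcr, with Cox and a digit from 4 to 8, or with Atp5, together with *Sdha* to *Sdhd*. This gave 84 of the 20368 genes in the table, 37 for complex I, 4 for complex II, 8 for complex III, 18 for complex IV and 17 for complex V. Whole read counts were recovered for 83 of them (not for *Cox8c*), and 82 passed a mean RPKM of at least 0.5, which *Cox7b2* did not, with 1 to 7 counts in each library. *Ndufa4* and *Ndufa4l2* stand with complex I by their symbols, although the NDUFA4 protein is now placed in complex IV, and *Atp5s* and *Atp5sl* name related proteins outside the core of ATP synthase. The subunits encoded in mitochondrial DNA are not analysed here.

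RNA-seq was done on hearts of CD1 mouse embryos at E11.5 and at E12.5, with 3 libraries in each of 4 groups. Every embryo carried *Mesp1Cre*, a Cre driven from the *Mesp1* locus that acts in early mesoderm, from which most but not all cells of the heart descend. Controls were *Mesp1Cre*;*Hira*+/fl, so that 1 wild-type allele of *Hira*, a gene for a chaperone of histone H3.3, was left after recombination, and mutants were *Mesp1Cre*;*Hira*-/fl, with a null allele in all cells and a conditional one. The labels do not say whether a library is 1 heart or several, nor that libraries came from separate litters, so p-values measure the spread between these libraries, which may be partly technical.

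Library totals ran from 12420737 to 18117488 counts. *Hira* itself had 977 to 1334 counts in controls and 735 to 1149 in mutants at E11.5, and 988 to 1533 in controls and 1076 to 1217 in mutants a day later, and did not pass the test at either stage (log2 ratio, that is log2 fold change, of mutant over control -0.26, SE 0.14, adjusted p = 0.622 at E11.5 and -0.01, SE 0.12, adjusted p = 0.966 at E12.5, edgeR). A count over the whole gene does not check the loss of the conditional exon. All 16 cardiomyocyte markers were detected in each group, and their summed level overlapped between all groups (29201 to 39091 CPM, counts scaled to the size of the library, over the 12 libraries). Y-linked counts gave the sex of the libraries: all 3 E11.5 controls were male, against 1 of 3 in each of the other groups. In bulk RNA, fewer cells of a type and less RNA per cell cannot be told apart.

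Complex I takes electrons from NADH and complex II from succinate, complex III passes them to cytochrome c, complex IV passes them to oxygen, and complex V uses the proton gradient that I, III and IV build to make ATP. Heart muscle draws most of its energy from this chain once it matures, and the embryonic heart is in the course of that change. Several complex IV subunits exist as a general form and a form of heart and skeletal muscle, lung or testis, so that the choice of isoform is often used as a sign of maturation.

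Promoter windows of RefSeq (GRCm38.p6, 250 bases before to 50 after a start) were matched by symbol for 65 of the 82 members. The NRF1 palindrome, the site of a regulator of respiratory genes, is GCGCA followed by its reverse complement TGCGC. It was found on either strand in a window of 5 of the 65 members (7.69%) and of 1.07% of all 27025 genes with a window. The ETS core CCGGAAG, the site of the GABP factor, was found in 16 (24.6%, against 9.93%). The repeat GAGAGAGA, the kind of motif read by GAGA-binding proteins, was found in 3 (4.62%, against 4.55%). No string searched contains another, and a match describes the window and no more. The 27025 genes were not limited to those tested in these hearts, so the members are not set against genes of like level. The windows of 3 members are shown, cut to the bases ahead of every annotated transcript and written 5′ to 3′ with motifs in capitals: *Ndufb10*, the 1 member with every mutant library below every control at both stages (chr17:24724479-24724673, minus strand, no motif), *Uqcrh*, the highest member of complex III (chr4:116075072-116075320, minus strand, an ETS core on the opposite strand), and *Cox6a1*, the general partner of the muscle isoform *Cox6a2* (chr5:115348982-115349208, minus strand, an NRF1 palindrome, while the ETS core of its window lies in the bases left out).
*Ndufb10*: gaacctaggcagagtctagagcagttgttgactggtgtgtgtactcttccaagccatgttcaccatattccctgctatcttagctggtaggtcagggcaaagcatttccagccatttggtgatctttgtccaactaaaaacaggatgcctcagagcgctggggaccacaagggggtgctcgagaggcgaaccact
*Uqcrh*: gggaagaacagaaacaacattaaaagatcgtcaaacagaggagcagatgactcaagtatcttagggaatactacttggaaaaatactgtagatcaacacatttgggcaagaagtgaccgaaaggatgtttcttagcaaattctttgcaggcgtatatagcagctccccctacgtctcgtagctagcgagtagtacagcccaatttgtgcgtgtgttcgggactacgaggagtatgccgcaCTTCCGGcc
*Cox6a1*: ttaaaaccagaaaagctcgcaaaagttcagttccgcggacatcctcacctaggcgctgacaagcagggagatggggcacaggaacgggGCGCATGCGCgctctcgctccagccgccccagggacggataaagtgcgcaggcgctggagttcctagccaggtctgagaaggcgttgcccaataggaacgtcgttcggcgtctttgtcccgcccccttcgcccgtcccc

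The members were among the most abundant transcripts of the heart. Their median level, in RPKM computed from the counts and gene lengths, was 296, against 11.1 for all genes tested, and 75 of 82 lay above 100 RPKM. ATP synthase had the highest median (531 RPKM over 17 genes), followed by complex IV (483 over 16), complex III (362 over 8), complex I (244 over 37) and complex II (206 over 4). *Atp5b*, the catalytic beta subunit of ATP synthase, stood highest of all with 1455 ± 74.6 RPKM (SD, n = 3) in controls and 1511 ± 129 in mutants at E11.5, and 1413 ± 42.5 in controls and 1446 ± 125 in mutants at E12.5, and these means differed by less than their spread. *Cox6b1*, which sits where the monomers of complex IV meet, led complex IV with a mean of 955 RPKM over the 12 libraries. *Ndufa4* led the genes set with complex I by symbol with 904, and *Ndufb8* came next with 465. *Uqcrh*, the hinge protein, led complex III with 743, and the iron-sulphur subunit *Sdhb* led complex II with 449. The low members were mostly isoforms of other tissues or conditions and the ATP synthase relatives: *Atp5s* (8.94 RPKM), *Ndufa4l2* (9.42), *Cox4i2* (11.5 to 18.1 as group means), *Atp5sl* (17.7) and *Cox6b2* (25.2). The muscle isoform *Cox8b* (32.1) and the complex I gene *Ndufa11* (54.1) were low as well. Many of these genes have processed pseudogenes, and how reads shared with them were counted is not given in the sources used here.

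Subunit genes are short, with a median length of 679 bases against 2869.5 for all genes tested, and 69 of 82 have at most 1500 bases. This matters here because the libraries differed in a trend of read count with gene length. In the third library of E11.5 mutants the median member stood 0.44 above its mean over the 12 libraries on the log2 scale, and in the third of E11.5 controls 0.46 above. In the first library of E12.5 controls it stood 0.26 below. Other genes of at most 1500 bases stood 0.35 and 0.25 above and 0.23 below in the same 3 libraries, and longer genes moved the opposite way by at most 0.07. In the plot of medians by library, complexes I, III, IV and V moved with the other short genes and in these 3 libraries complex II moved least. The members took from 2.36% of all counts (the first E12.5 control) to 3.25% (the third E11.5 mutant). Each comparison is therefore given beside other genes of at most 1500 bases, and beside a fit with an offset for the length trend of each library. That offset is fitted on all genes tested, so it takes out any change that genes of like length share, whatever its source.

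**Figure D1:**
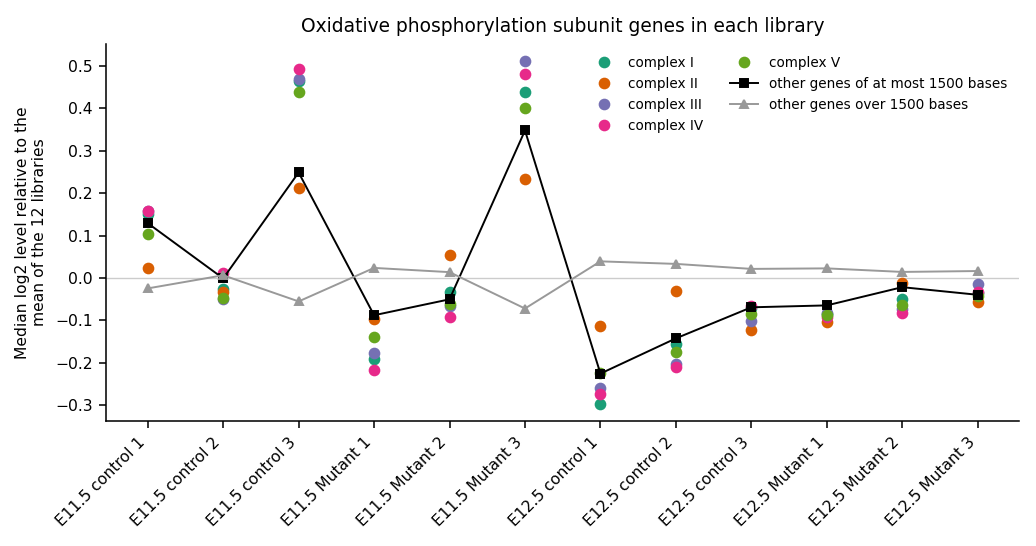
Median log2 level of the members of each complex (coloured points) in each of the 12 libraries, relative to each gene's mean over the libraries, with other genes of at most 1500 bases (black squares) and longer genes (grey triangles). The third E11.5 libraries of both genotypes lie highest and the first E12.5 control lowest, for complexes I, III, IV and V and for other short genes.

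Between mutant and control hearts at E12.5, 2 of 82 members (2.44%) passed an adjusted p of 0.05, *Ndufa4l2* higher and *Ndufb10* lower in the mutants. Of the 12663 genes tested, 4.86% passed (2.68% higher and 2.18% lower). An unadjusted p under 0.05 was reached by 22 members, by 21.3% of all genes and by 542 of the 2095 other short genes. The median log2 ratio of the members was 0.10, and that of 2095 other short genes was 0.11. It was 0.10 in complex I, 0.06 in complex II, 0.15 in complex III, 0.12 in complex IV and 0.08 in complex V. The mutant libraries lay above all control libraries for 25 members, a separation shown by 30.5% of members, 24.3% of other short genes and 13.7% of all genes, and below them for *Ndufb10* alone (12.6% of all genes). With the length offset the median was -0.00 and that of other short genes 0.02. With a fold of at least 1.5 as well, 1 member passed, *Ndufa4l2* (2.95% of all genes). The range was narrow, from -0.46 to 0.70 over all 82 members and, without the 2 that passed, from -0.22 (*Atp5s*) to 0.28 (*Ndufa13*). Summed erythroid markers were lower in the E12.5 mutants, at 2207 to 2961 CPM over 12 genes against 4114 to 6714 in the controls (9 of 12 passed, all lower), as were those of macrophages, at 39.1 to 57.9 CPM over 7 genes against 80.2 to 102, and of cushion mesenchyme, at 3431 to 3828 CPM over 8 genes against 3869 to 4686. The sum of neural markers was higher, at 43.6 to 51.8 CPM over 7 genes against 23.3 to 29.1. Of the 4 neural markers tested, only 2 had a log2 ratio above 0, and 2 passed higher. The part of these cells in the subunit values was not tested.

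*Ndufb10* encodes an accessory subunit of the membrane arm of complex I (GRCm38, chromosome 17, bases 24722060 to 24724478, minus strand). At E12.5 it had 1979, 2617 and 2422 counts in controls and 1453, 1843 and 1572 in mutants. At E11.5 the counts were 2313, 1999 and 2287 in controls and 1352, 1711 and 1446 in mutants. The mutant libraries lay below all controls at both stages, with the narrowest gap at E11.5, where the highest mutant had 121 CPM and the lowest control 123. The levels were 137 ± 10.2 CPM (SD, n = 3) in control and 99.6 ± 4.91 in mutant hearts at E12.5, a log2 ratio of -0.46 (SE 0.08, adjusted p = 0.0111, by the quasi-likelihood test of edgeR). At E11.5 they were 141 ± 15.8 and 102 ± 18.3 CPM, a log2 ratio of -0.47 (SE 0.16, adjusted p = 0.333, edgeR). The E12.5 call held with the length offset, under which 4.71% of all genes passed (log2 ratio -0.59, adjusted p = 0.00227, edgeR). It was lost without the first E12.5 mutant library, where the log2 ratio was -0.42 (adjusted p = 0.0526, edgeR), and with all 12 libraries in 1 fit (adjusted p = 0.114, edgeR).

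The genes around *Ndufb10* were then read, a choice made after its values were seen. *Rps2*, a ribosomal protein gene on the plus strand whose end lies 130 bases from the end of *Ndufb10*, had a log2 ratio of 0.05 (SE 0.17) at E11.5 and 0.13 (SE 0.08) at E12.5 and passed at neither stage. On the other side, 3341 bases from the start of *Ndufb10* and on the plus strand, lies *Rpl3l* (chromosome 17 from 24727820 to 24736143), the muscle paralogue of the ribosomal protein gene *Rpl3*. *Rpl3l* had 4, 11 and 21 counts in controls and 30, 32 and 32 in mutants at E11.5, then 14, 17 and 12 in controls and 46, 39 and 43 in mutants. These counts are low, and the mutants were above every control of their stage. The log2 ratio was 1.64 at E12.5 (SE 0.29, adjusted p = 0.0130, edgeR) and 1.45 at E11.5 (SE 0.53, adjusted p = 0.376, edgeR), opposite in sign to *Ndufb10*. *Tbl3*, *Gfer*, *Noxo1* and *Msrb1*, 12163 to 25903 bases away, passed at neither stage. In CPM the E12.5 mutants lay above all E12.5 controls for *Rps2* and *Msrb1*, as for 13.7% of all genes. *Rnf151*, 3996 bases away, and *Hs3st6*, 28509 bases away, were below the filter, with at most 9 counts in any library, too few to read. How the counting treated reads shared between *Rpl3l* and *Rpl3* is not given in the sources used here.

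*Ndufa4l2* is a relative of *Ndufa4* known for its induction by hypoxia, on chromosome 10 from 127514967 to 127517154, plus strand. Its counts at E12.5 were 95, 108 and 140 in controls and 192, 179 and 161 in mutants. At E11.5 they were 104, 78 and 91 in controls and 198, 108 and 235 in mutants. All mutants were above all controls at E12.5, and at E11.5 the second mutant lay among the controls in CPM (6.28 against 4.81 to 6.53). The log2 ratio was 0.70 at E12.5 (SE 0.17, adjusted p = 0.0437, edgeR) and 1.12 at E11.5 (SE 0.37, adjusted p = 0.322, edgeR). The E12.5 call held in 1 of the 6 fits that leave out a library (without the third control) and was lost with the length offset (log2 ratio 0.61, adjusted p = 0.0650, edgeR).

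**Figure D2:**
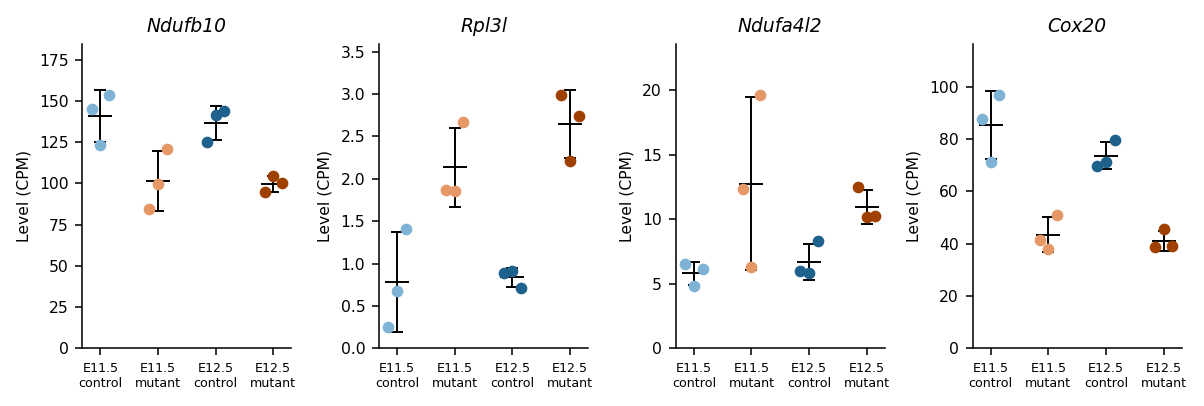
Level in CPM of *Ndufb10*, its neighbour *Rpl3l*, *Ndufa4l2* and the complex IV assembly factor *Cox20* in every library (points), with the mean and SD of each group of 3. *Ndufb10* and *Cox20* lie lower and *Rpl3l* higher in all mutant libraries than in the controls of both stages, while *Ndufa4l2* overlaps in CPM at E11.5.

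At E11.5 none of the 82 members passed (0.119% of 12594 genes did, 0.0556% higher and 0.0635% lower), and 4 had an unadjusted p under 0.05 (10.1% of all genes). These were *Cox6a2*, *Ndufb10*, *Cox6b2* and *Ndufa4l2*. The mutants lay above all controls for 1 member, *Cox6b2* (8.31% of all genes), and below them for *Ndufb10* and *Atp5s* (8.08% of all genes). DESeq2 called 1 member, *Cox6b2*, as did the fit of all 12 libraries. The median log2 ratio was -0.12 over the members and -0.06 over 2107 other short genes, and with the length offset these were 0.01 and -0.00, and again no member passed (0.524% of all genes). By complex the medians ran from -0.14 in complex IV to 0.02 in complex II. Sex and genotype overlap at this stage, since all 3 controls and only the third mutant were male. With sex as a covariate the fit therefore sets this 1 mutant library against the 3 controls. The median of the members was then 0.26, of the opposite sign. In that library the median member stood 0.44 above its mean over the 12 libraries. The value of 0.26 cannot tell genotype from a trait of that library. In E11.5 mutants the summed endothelial markers reached 1315 to 1921 CPM over 10 genes, against 1085 to 1337 in the controls. Summed neural markers reached 37.1 to 65.0 over 7 genes, against 25.7 to 34.9. Of the 4 neural markers tested, only 2 had a log2 ratio above 0, and 0 passed. The mutants had less RNA of the markers of epicardium (505 to 571 against 597 to 882 over 8 genes) and of cushion mesenchyme (2406 to 3235 against 3412 to 3695 over 8 genes), and of macrophages (12.9 to 17.3 against 29.5 to 76.7 over 7 genes). Their part was likewise not tested.

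**Figure D3:**
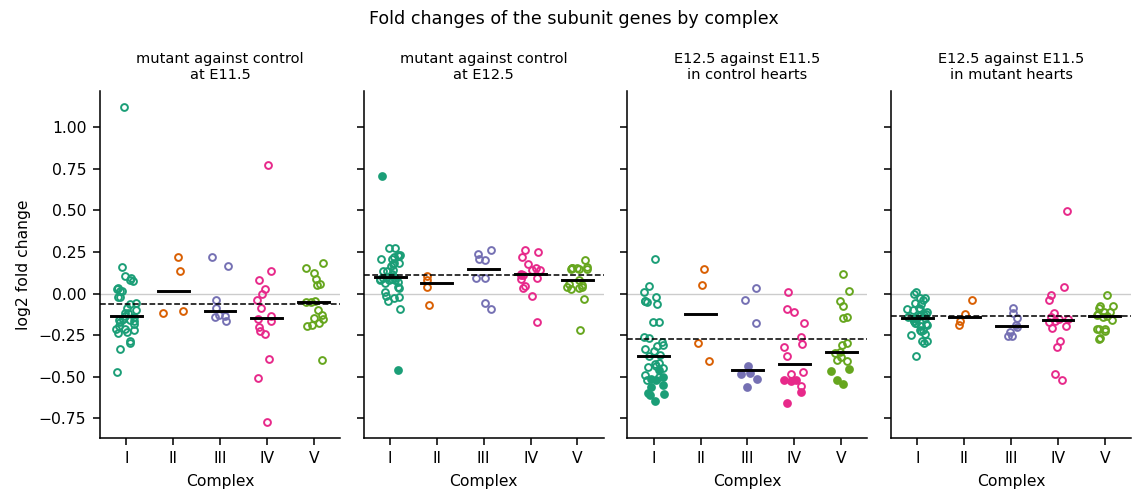
Log2 ratio of each of the 82 members by complex in the comparisons of mutant with control at each stage and of E12.5 with E11.5 in each genotype. Filled points passed an adjusted p of 0.05 (edgeR), short bars are medians of a complex and dashed lines the median of other genes of at most 1500 bases; medians of complexes I, III, IV and V lie on the same side of 0 as that line in every panel.

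From E11.5 to E12.5, control hearts had lower counts of many subunit genes. Of the 82 members, 24 (29.3%) passed and all 24 were lower at E12.5, against 11.3% of the 12650 genes tested (5.59% higher and 5.72% lower) and 19.5% of 2099 other short genes (18.7% lower). The 24 comprised 10 of 37 in complex I, 5 of 8 in complex III, 5 of 16 in complex IV, 4 of 17 in complex V and 0 of 4 in complex II. An unadjusted p under 0.05 was reached by 55 members (32.7% of all genes, and 963 of the 2099 other short genes), and 6 passed both the adjusted p and a fold of at least 1.5 (5.27% of all genes). The E12.5 controls lay below all E11.5 controls for 51 members (62.2%, against 43.2% of other short genes and 18.5% of all genes) and above them for *Sdhc* alone (19.1% of all genes). The median log2 ratio was -0.37, against -0.27 for other short genes. Of those 2099 genes, 1275 had more than 1000 bases, and their median was -0.22, so the shares above are not taken over genes of like length. The members' median minus that of other genes of at most 1000 bases was 0.0042. By complex the median was -0.46 in complex III, -0.42 in complex IV, -0.38 in complex I, -0.35 in complex V and -0.13 in complex II.

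The 3 largest falls were those of *Cox4i2*, the lung and hypoxia isoform of subunit 4 of complex IV, of *Ndufa2* and of *Ndufa3*, both accessory subunits of complex I. *Cox4i2* had 223, 203 and 191 counts at E11.5 and 128, 160 and 139 at E12.5, or 13.1 ± 0.779 and 8.33 ± 0.283 CPM (SD, n = 3), a log2 ratio of -0.66 (SE 0.14, adjusted p = 0.0256, edgeR). The groups did not overlap and the libraries of each were close together. *Ndufa2* had 195, 152 and 260 CPM at E11.5 and 114, 134 and 139 at E12.5 (log2 ratio -0.65, SE 0.17, adjusted p = 0.0410, edgeR). *Ndufa3* went from 173 ± 43.3 to 113 ± 5.29 CPM (log2 ratio -0.61, SE 0.16, adjusted p = 0.0368, edgeR). For both, the third E11.5 control was the highest of the 6 libraries. Abundant members that passed included *Ndufa4* (-0.61), *Uqcrh* (-0.51), *Cox6b1* (-0.52) and *Cox7a2* (-0.59).

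These falls ran along with gene length. Among the 30 members of more than 400 and at most 600 bases the median log2 ratio was -0.46, and among the 146 other genes of that length it was -0.50. Among the 13 members over 1500 bases the median was -0.04. In 5 of them it lay above 0. The long members that passed were *Ndufv3* (1580 bases, -0.50) and *Ndufs4* (1534 bases, -0.46), both of complex I, and with the length offset their log2 ratios were -0.35 (adjusted p = 0.0995, edgeR) and -0.30 (adjusted p = 0.104, edgeR). Across the 82 members, log2 ratio and length had a Spearman correlation of 0.51, and across all 12650 genes 0.49, given as a description, since genes of a library share its length trend. With the length offset the median of the members was 0.02, and 0 of the 24 passed (4.24% of all genes did). *Ndufb10* then passed in the other direction (log2 ratio 0.36, adjusted p = 0.0316, edgeR), where without the offset it was -0.04. A change with stage that genes of like length share is taken out too, so the offset cannot tell it from a trait of the libraries.

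The 24 calls also depended on single libraries. None of the 24 held when any of these was left out: control 1 or 3 of E11.5, control 1 or 2 of E12.5. By contrast, 8 held without the third E12.5 control, and all 24 held, among 52, without the second E11.5 control. None held with sex as a covariate. All E11.5 controls but only the third E12.5 control were male, so that fit sets this 1 library against the E11.5 controls. Calls lost there do not show a dependence on sex. The sizes changed less than the calls: the log2 ratios of the 24 lay between -0.67 and -0.32 with sex as a covariate and between -0.67 and -0.48 without the first E11.5 control, and none turned in either fit. Summed markers of epicardium were lower in the E12.5 controls (402 to 587 CPM against 597 to 882) and those of macrophages higher (80.2 to 102 against 29.5 to 76.7). The sums for endothelium (1400 to 1449 against 1085 to 1337) and cushion mesenchyme (3869 to 4686 against 3412 to 3695) were higher too. So was that for skeletal muscle (70.6 to 83.6 against 40.1 to 59.1). Single markers were mixed: 4 of 8 for cushion mesenchyme had a log2 ratio above 0, and 1 passed higher and 1 lower. Of 2 skeletal muscle markers tested, 1 passed higher and 1 lower. The part of all these cells in the subunit values was not tested.

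**Figure D4:**
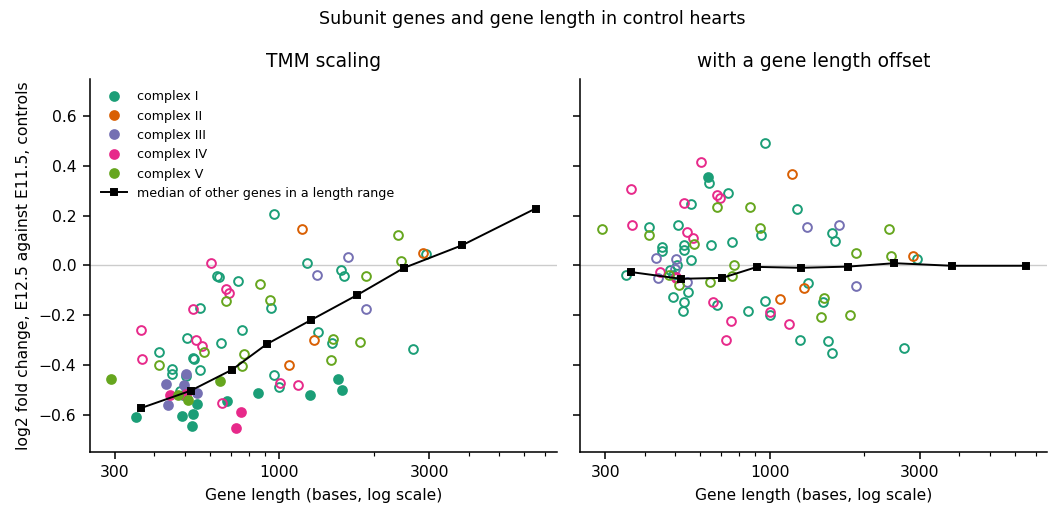
Log2 ratio of the members between E11.5 and E12.5 controls against gene length in bases (log axis), with TMM scaling and with an added length offset; filled points passed an adjusted p of 0.05 and black squares are medians of other genes in ranges of length. Both members and other genes rise with length under TMM scaling. The offset is fitted on all genes tested, so medians of other genes lie near 0 with it by construction. Members lie around 0 as well.

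In mutant hearts, 0 of 82 members passed between E11.5 and E12.5 (edgeR, 0.577% of 12644 genes did, 0.301% higher and 0.277% lower), and 1 had an unadjusted p under 0.05 (9.21% of all genes). No alternative called a member except that *Cox8b* passed once the third E11.5 mutant was left out. The median was -0.15, and that of other short genes -0.13. The E12.5 libraries lay below all E11.5 libraries for 2 members (8.02% of all genes) and above them for 0 (9.38%). With the length offset 0 members passed (0.823% of all genes). The outermost values were those of *Cox6b2* (log2 ratio -0.52, SE 0.16) and *Cox8b* (0.50, SE 0.36). No difference of the mutant effect between the stages passed for any of the 82 members, by edgeR or by DESeq2, nor by edgeR for any of the 12664 genes, which does not show that the effects were alike. No member had an unadjusted p under 0.05 (4.51% of all genes did), and with the length offset 6 members did, as did 683 of all genes. The median difference of the log2 ratios was 0.22 over the members and 0.17 over other short genes, and -0.01 over the members with the length offset. The outermost members were *Cox8b* (0.77, SE 0.45) and *Cox6b2* (-0.52, SE 0.26).

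A set of 8 subunits, chosen for the catalytic, redox or core parts of complexes I, II, III and V and not a full list, passed in no comparison. These are *Ndufv1* and *Ndufs1*, which carry electrons from NADH in complex I, *Sdha* and *Sdhb* of complex II, the core protein gene *Uqcrc1* and the Rieske protein gene *Uqcrfs1* of complex III, and *Atp5a1* and *Atp5b* of ATP synthase. For these 8 the log2 ratios of mutant over control lay between -0.12 and 0.22 at E11.5, and between -0.07 and 0.10 at E12.5. Those of E12.5 over E11.5 lay between -0.40 (*Sdhb*) and 0.05 in controls and between -0.25 and -0.02 in mutants. Most of these genes are longer than the accessory subunits. The X-linked *Ndufa1*, *Ndufb11* and *Cox7b*, where the numbers of male and female libraries could enter, lay between -0.52 and -0.47 in control hearts from E11.5 to E12.5, and *Ndufb11* passed (adjusted p = 0.0393, edgeR). *Ndufa1* was 0.27 higher in E12.5 mutants on the log2 scale and did not pass (adjusted p = 0.0615, edgeR).

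The isoforms of complex IV were compared as the share of 1 form in the summed RPKM of the pair, which is free of library size but not of a length trend between partners. With 3 libraries against 3 the exact two-sided permutation test cannot go below 0.1, so no share could pass. The muscle form *Cox6a2* made up 33.4, 29.1 and 39.8% of the pair with *Cox6a1* in E11.5 controls and 20.9, 24.4 and 24.7% in E11.5 mutants. All mutants were below all controls (34.1 ± 5.35% against 23.3 ± 2.08%, SD, n = 3, exact permutation p = 0.1). At E12.5 the shares were 28.5, 27.4 and 30.6% in controls and 24.1, 24.6 and 28.7% in mutants, which overlap (exact permutation p = 0.3). In counts, *Cox6a2* had a log2 ratio of -0.77 at E11.5 (SE 0.24, adjusted p = 0.291, edgeR) and -0.17 at E12.5 (SE 0.11, adjusted p = 0.389, edgeR), and the difference between the stages did not pass (0.60, SE 0.29, adjusted p = 0.953, edgeR).

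*Cox6b2*, known as the testis form of subunit 6b, was a small part of its pair: 2.22, 1.66 and 1.54% in controls and 3.99, 3.33 and 2.97% in mutants at E11.5, then 2.35, 2.31 and 2.96% in controls and 2.92, 2.80 and 2.33% in mutants. The mutants were above all controls at E11.5 (exact permutation p = 0.1) and overlapped them at E12.5 (exact permutation p = 0.9). Its log2 ratio at E11.5 was 0.77 (SE 0.20, adjusted p = 0.189, edgeR). *Ndufa4l2* was 0.668, 0.546 and 0.464% of its sum with *Ndufa4* in controls and 1.57, 0.736 and 1.58% in mutants at E11.5, without overlap (exact permutation p = 0.1). It was 0.957 ± 0.157% in control and 1.38 ± 0.200% in mutant hearts at E12.5, without overlap (exact permutation p = 0.1).

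The other pairs gave no exact permutation p under 0.2 between genotypes. The muscle form *Cox7a1* was 23.3 ± 1.36% of its sum with *Cox7a2* in controls and 20.8 ± 1.47% in mutants at E11.5, and 25.9 ± 0.441% and 24.2 ± 2.28% at E12.5. *Cox8b*, the muscle form of subunit 8, lay between 3.46 ± 1.21% (E11.5 mutants) and 5.42 ± 0.508% (E12.5 mutants) of its sum with *Cox8a*. *Cox4i2* stood at 1.92 ± 0.113% of its sum with *Cox4i1* in E11.5 controls and 1.31 ± 0.0716% in E12.5 controls, without overlap (exact permutation p = 0.1), and genotypes overlapped at both stages. *Atp5g1*, *Atp5g2* and *Atp5g3* encode the same mature c subunit of the ATP synthase ring. *Atp5g3* gave 58.9 to 60.5% of their summed RPKM as group means, *Atp5g1* 25.9 to 28.7% and *Atp5g2* 11.9 to 14.5%. Only *Atp5g2* passed a test, lower in E12.5 than in E11.5 controls (log2 ratio -0.46, adjusted p = 0.0340, edgeR).

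**Figure D5:**
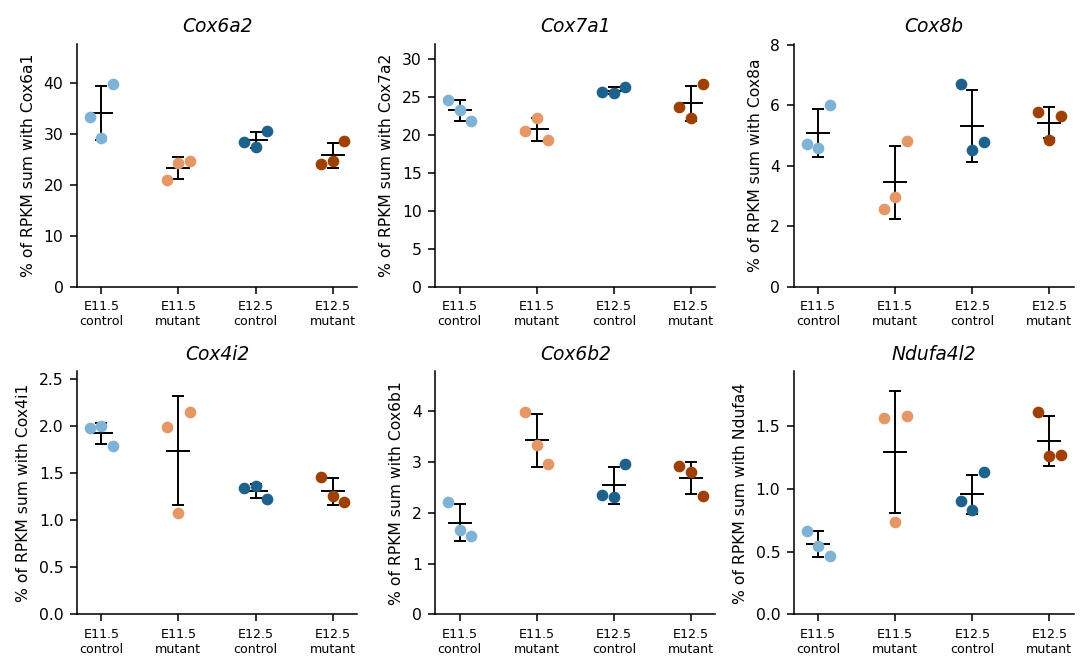
Share of the named isoform in the summed RPKM of its pair, in percent, in every library (points), with the mean and SD of each group of 3. *Cox6a2* lies lower and *Cox6b2* higher in all E11.5 mutants than in E11.5 controls, and both overlap at E12.5.

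Genes that assemble or regulate the complexes were read from lists. Of 38 assembly factors tested, 2 passed at E12.5, both lower in the mutants, against 4.86% of all genes tested. *Cox20*, which guides the COX2 subunit into complex IV, had 1106, 1323 and 1342 counts in E12.5 controls and 594, 805 and 614 in E12.5 mutants. At E11.5 it had 1398, 1158 and 1442 in controls and 664, 654 and 611 in mutants. At both stages every mutant was below every control. The levels were 73.7 ± 5.25 and 41.1 ± 3.89 CPM at E12.5 (log2 ratio -0.84, SE 0.09, adjusted p = 0.00161, edgeR) and 85.4 ± 13.0 and 43.5 ± 6.75 CPM at E11.5 (-0.97, SE 0.16, adjusted p = 0.0820, edgeR). With the length offset it passed at E11.5 as well (log2 ratio -0.80, adjusted p = 0.0353, edgeR). *Bcs1l*, which inserts the Rieske protein into complex III, had 382, 452 and 447 counts in control and 270, 282 and 330 in mutant hearts at E12.5, without overlap (log2 ratio -0.46, SE 0.12, adjusted p = 0.0499, edgeR).

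In control hearts from E11.5 to E12.5, 3 of the 38 assembly factors passed (11.3% of all genes did), all lower: *Cox16* (log2 ratio -0.62), *Cox17* (-0.56) and *Ndufaf1* (-0.38). With the length offset *Cox16* alone kept the call (-0.55, adjusted p = 0.0370, edgeR). Of 5 subunits or close partners outside the symbol rule, *Atpif1* (-0.54), *Usmg5* (-0.51) and *2010107E04Rik* (-0.61), all linked to ATP synthase, were lower, and none passed with the offset. Of 20 regulators of mitochondrial biogenesis, 3 passed and were higher and none passed lower (5.59% and 5.72% of all genes), 13 of 20 lay above 0 and the median log2 ratio was 0.13, or 0.06 with the offset. *Ppargc1a*, the coactivator PGC-1alpha, had 799, 1079 and 811 counts at E11.5 and 1873, 1698 and 1518 at E12.5, 57.1 ± 8.47 against 100.05 ± 15.9 CPM (log2 ratio 0.81, SE 0.14, adjusted p = 0.0147, edgeR), without overlap. *Ppara*, a receptor that drives fatty acid oxidation, was 1.40 higher on the log2 scale (SE 0.28, adjusted p = 0.0222, edgeR) and *Gabpb2* 0.39 higher. *Ppargc1a* and *Ppara* are long genes, and with the offset both still passed (0.59 and 1.15 on the log2 scale). None of the 16 genes of the tricarboxylic acid cycle passed in any comparison, with medians between -0.03 and 0.05. Of 15 carriers of the mitochondrial membranes, *Slc25a12*, an aspartate and glutamate carrier, was higher in E12.5 controls (0.37), and no carrier passed between genotypes.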

How the data were processed

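RNA was taken from embryonic hearts in 4 groups of 3 libraries and sequenced as paired ends. The submitters' processing notes name Bowtie2, DESeq and the build mm10. The counting program, its annotation and its use of strand are not given in the sources used here. The authors deposited a table of values per gene and library that they call RPKM and that is treated here as a score, because each value equals a whole count multiplied by gene length and by a library factor. They also deposited, for each stage, the average of the counts over the 3 libraries of a group, a kind of estimated count, since every average was whole, within 0.001, after multiplying by 3. The authors' fold changes, z scores and p-values in the same files were not used.

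Whole counts were recovered for 18328 genes by solving for the length and library factors that make the recovered counts average to the deposited averages (factors fitted on 13457 genes, largest distance from a whole number 4.22e-10). Of these, 501 genes had no average and were solved from whole-number steps alone. RPKM, in the sense of the report, and CPM with TMM scaling were computed from these counts. Totals of 12420737 to 18117488 counts per library leave the spread between libraries as the limit for nearly all members.

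Each comparison of 2 groups was fitted with the quasi-likelihood test of edgeR 4.0.16 in R 4.3.3 over all genes whose RPKM averaged 0.5 or more, the difference between stages over all 12 libraries. P-values were adjusted by Benjamini-Hochberg over all genes tested, and a gene passed at 0.05. The length offset is a lowess curve (span 0.3) fitted in each library over all genes tested, against log2 gene length. The value fitted is a gene's log2 CPM in that library minus its mean over the libraries of the fit. Alternatives were no filter, an average RPKM of 5 or more, scaling by median ratios, the length offset, DESeq2 1.42.0, limma 3.58.1 on log2(RPKM + 0.5), a fold of at least 1.5, all 12 libraries in 1 fit, a replicate block, sex as a covariate, autosomes only and each library left out. The scripts were tested on simulated counts. Named were the isoforms with their partners, the chosen catalytic, redox or core subunits, the X-linked members and the members that passed or lay outermost in a comparison. The members, the lists of assembly factors, regulators, cycle enzymes and carriers, and the markers were chosen with earlier results of these data known.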

Additional observations from a re-analysis of the deposited data

Results flagged for a closer look

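The share of *Cox6b2* in its sum with *Cox6b1* moved in opposite directions between the stages in the 2 genotypes. It was 0.735 percentage points higher in E12.5 than in E11.5 controls and 0.744 points lower (a difference of -0.744) in E12.5 than in E11.5 mutants, with no overlap in either genotype, so that the change in mutants minus that in controls was -1.48 points. This difference of shares was not tested. In counts, the matching difference for *Cox6b2* did not pass (log2 ratio -0.52, adjusted p = 0.953, edgeR). *Cox6b2* had 9.68 to 14.4 CPM in the E11.5 controls and 18.3 to 24.6 in the E11.5 mutants. Its mean in controls was 12.4 ± 2.42 CPM at E11.5 and 12.5 ± 2.41 at E12.5, while *Cox6b1* went from 569 ± 115 to 398 ± 24.3. In mutants *Cox6b2* went from 21.2 ± 3.20 to 14.8 ± 1.44 CPM and *Cox6b1* from 511 ± 142 to 451 ± 11.9. The higher share in E12.5 controls thus came with a like level of *Cox6b2* and a lower mean of *Cox6b1*. *Cox6b1*, its partner, is a far more abundant gene of 505 bases that follows the length trend of the libraries, and the part of that trend in the shares was not tested.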

How the results depend on the processing

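The count of members that passed between E11.5 and E12.5 controls, 24, depended most on the processing. It was 44 with DESeq2, 6 with limma and 6 with a fold of at least 1.5, 1 with the length offset and 1 with all 12 libraries in 1 fit, and 0 with sex as a covariate. With that covariate the stage difference rests on the 1 male E12.5 control. Leaving out 1 library gave 0 to 52. The members' median there, -0.37, was 0.0234 with the length offset, and ran from -0.4826 to -0.2268 with a library left out. Their median minus that of other short genes was 0.0382 with the offset and 0.0042 against genes of at most 1000 bases, and ran from -0.1309 to -0.0137. With the offset 44 of 82 members lay above 0 in that comparison, against 9 without it, and 3 of the 24 turned. Of genes that passed with or without the offset and are named, *Ndufb10* and *Usmg5* turned, to 0.3554 and 0.0446.

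At E12.5, 2 members passed between genotypes. DESeq2 called 5, a mean RPKM of at least 5, the length offset and the fold limit each left 1, and the fit of all 12 libraries left 0. Leaving out a library gave 0 to 2. At E11.5, 1 member passed with DESeq2 and 1 with all 12 libraries, and 0 with any library left out. The median there was 0.2604 with sex as a covariate, and its distance from other short genes was 0.0353 with that covariate and -0.1427 without the filter. The fit with that covariate sets the 1 male E11.5 mutant against the controls. Leaving out a library gave medians from -0.3209 to 0.0241 and distances from -0.1046 to 0.0073. In mutants between stages 0 to 1 members passed and the median ran from -0.2781 to 0.0493. The median difference between stages was -0.0064 with the offset and ran from 0.0781 to 0.4427. Without both E11.5 libraries numbered 3, chosen after seeing the data, 0 members passed at E11.5.

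Same-numbered libraries did not deviate together in every pair of any comparison (correlations of -0.121 to 0.424), so the numbers were not taken as a pairing. With a replicate block 39 members passed between the controls, 2 at E12.5 and 0 elsewhere. With the block and the length offset together, 1 passed in each of those 3 comparisons (E11.5, E12.5 and controls), the control median was 0.0245, its distance from other short genes 0.0355 and the median difference between stages -0.0050, with *Ndufb10* at 0.3559 and *Usmg5* at 0.0452. Causes of these shifts were not tested. Depth did not limit the abundant members, but *Rpl3l* and *Ppara* rest on low counts.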
